A study of Mus musculus with 8 samples.

Results

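The genes described here are 10 transcripts that ERK switches on, either to restrain the RAS-MAPK pathway or as part of its output: Dusp4, Dusp5, Dusp6, Spry1, Spry2, Spry4, Spred1, Etv4, Etv5 and Phlda1. They were chosen by name from the 54532 genes of the deposited count table, and all 10 had a row. The 8 libraries came from orthotopic pancreatic tumours of C57BL/6 mice. The tumours were seeded with KPC cells, a line of mouse pancreatic cancer. In 4 of them the mice had received 2 weeks of TLQP21, which is a fragment of the secreted protein VGF, and in the other 4 saline over the same time. The series asks which transcripts accompany the slower tumour growth that the submitters describe under the peptide. Every tumour descends from the same labelled cell line, and whole tumours were sequenced, so that each library mixes KPC cells with stroma, immune cells and neighbouring pancreas. In such samples fewer cells of a type and less RNA per cell cannot be told apart.

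In the RAS-MAPK pathway, active RAS recruits RAF kinases, which activate the kinases MEK and then ERK. ERK raises transcription of genes whose products shut the pathway down again, among them dual-specificity phosphatases that remove the activating phosphates from ERK and Sprouty and SPRED proteins that act nearer to RAS. Because these transcripts follow ERK activity closely, they are widely read as an index of the pathway's output in tumours.

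Summed gene counts ran from 29027480 to 33536087 per library in the TLQP21 group and from 28358465 to 28963457 in the Saline group. Libraries 1 and 2 of each group held Xist RNA, made by the silenced X (9960 to 10625 reads), and libraries 3 and 4 held Y-linked transcripts instead (0 to 14 Xist reads), a split that the labels do not mention. Epithelial tumour markers were all detected, with summed levels of 6486 to 6805 CPM (counts per 1e6 library counts, after TMM scaling) in TLQP21 tumours and 6035 to 6532 CPM in Saline tumours. The Saline 2 library held hepatocyte transcripts at a summed 4041 CPM, against 5.58 to 9.27 CPM in the other 7 libraries. On the first 2 principal components of all tested genes TLQP21 4 lay farthest from the centre (distance 68.4), followed by Saline 4 (53.2) and Saline 2 (46.9). Saline 4 also stood apart in its stromal and acinar transcripts. Its fibroblast markers summed to 11437 CPM, against 5972 to 8333 CPM in the TLQP21 libraries and 5646 to 6154 CPM in the other Saline libraries. Its acinar markers summed to 41464 CPM, against 7576 to 22789 CPM in TLQP21 and 8386 to 18187 CPM in the other Saline libraries.

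None of the 10 transcripts passed the test between TLQP21 and Saline tumours, and for every one the 2 groups of libraries overlapped. Groups without overlap were rare over all tested genes as well (1.66%). In edgeR's quasi-likelihood test 0 of 10 passed the threshold (adjusted p = 0.9999 for each), against a background of 0 of 18238 genes (0%), and 0 of 10 had an unadjusted p under 0.05, against 3.06% of all genes. DESeq2 called 0 of the 10 and limma's voom 0 of the 10. At an unadjusted p under 0.05 both again had 0 of the 10, against 2.30% of all genes in DESeq2 and 10.6% in voom. Over all genes DESeq2 called 4 (0.0192% of 20780; Ighv7-4, Gpr141, Blvrb and Cd69, named after their values were seen) and voom called 1 (0.00548%; Ighv7-4). The 8 fitted differences above 0 ran from 0.0020 to 0.16 on the log2 scale, and the 2 below 0 (49.4% of all genes) were -0.18 for Dusp4 and -0.23 for Dusp5. The median of the 10 was 0.04, beside 0.0020 over all tested genes, and 50.6% of all genes lay above 0. This balance was not stable: limma's voom put 6 of the 10 below 0 with a median of -0.062, and leaving out TLQP21 4 put 6 below 0 with a median of -0.0049. For 5 of the 10 (Dusp6, Spry1, Spred1, Etv4 and Phlda1) the sign turned when 1 library was left out. For 9 of the 10 the 95% interval reached neither a 1.5-fold rise nor a 1.5-fold fall, which held for 55.1% of all tested genes. All 10 were well counted, with 555 to 5826 reads per library and a mean CPM above that of 53.9% to 93.9% of tested genes.

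**Figure D1:**
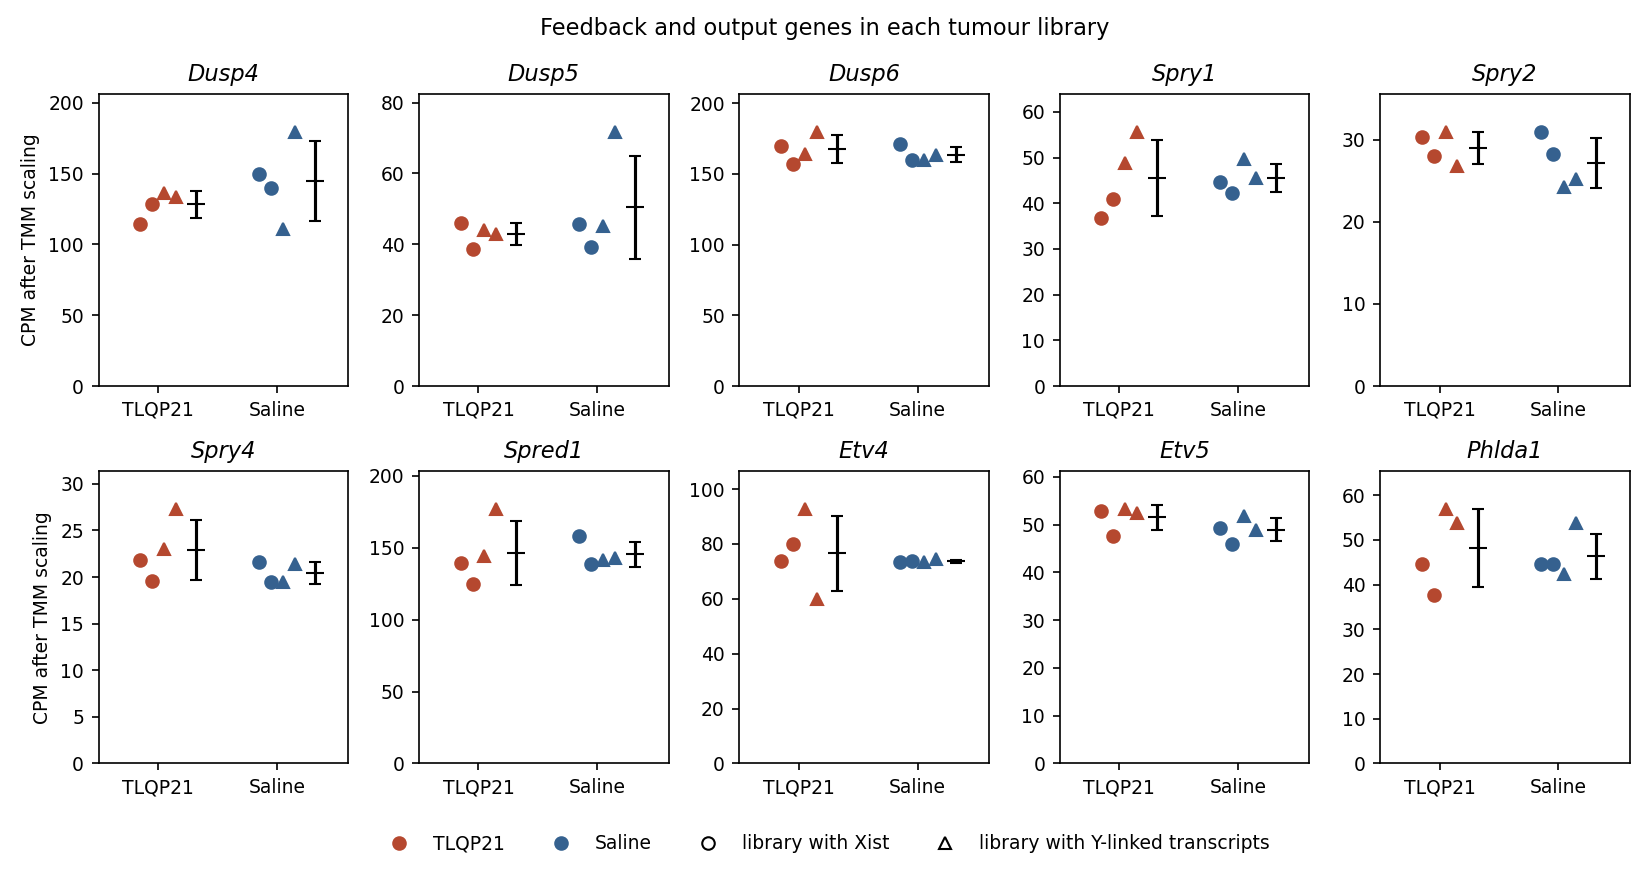
CPM after TMM scaling (y axis, from 0, a separate scale for each gene) of the 10 genes in 4 TLQP21 and 4 Saline libraries; circles are libraries with Xist, triangles libraries with Y-linked transcripts, and black bars the group mean ± SD. The 2 groups overlap for every gene, and the Saline 4 library holds the highest Dusp5 value, 71.8 CPM.

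**Figure D2:**
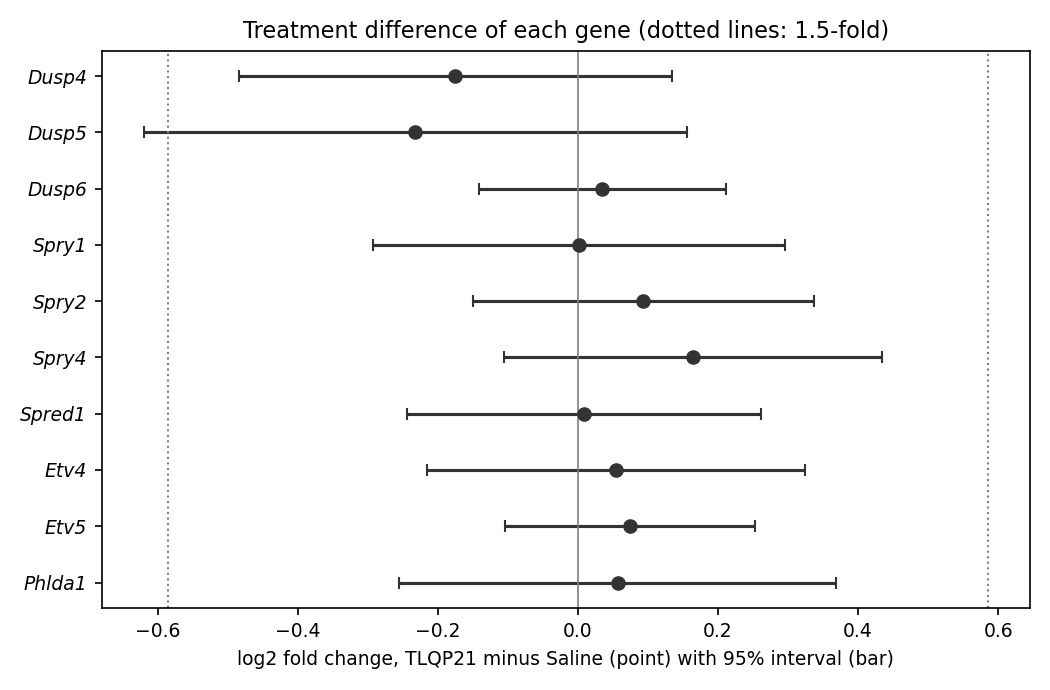
Log2 fold change of TLQP21 minus Saline (points) with its 95% interval (bars) from edgeR for the 10 genes; dotted lines mark 1.5-fold in each direction. Each interval includes 0, and that of Dusp5 alone reaches past a dotted line.

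The sequence before the start of transcription is shown for 3 of the phosphatase and SPRED genes, those on which the results below turn most: Dusp5, which carried the widest spread, and Dusp6 with Spred1, the pair of transcripts with the highest Pearson correlation over the 8 libraries. Each is the 250 bases before a RefSeq start site, 5′ to 3′ on the strand of the gene (GRCm38.p6, all on the plus strand), at chr19:53528895-53529144 for Dusp5, chr10:99262981-99263230 for Dusp6 and chr2:117120821-117121070 for Spred1. In the Dusp5 sequence the capitals mark CArG boxes, the DNA element of serum response factor. In the other sequences they mark GGAA on either strand (GGAA or TTCC), the core of the sites that ETS factors such as ETV4 and ETV5 read.
Dusp5: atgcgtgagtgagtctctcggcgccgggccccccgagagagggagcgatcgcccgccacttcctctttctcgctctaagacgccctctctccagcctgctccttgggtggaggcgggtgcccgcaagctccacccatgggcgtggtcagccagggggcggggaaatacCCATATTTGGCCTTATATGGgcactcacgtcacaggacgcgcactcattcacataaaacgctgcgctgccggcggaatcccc
Dusp6: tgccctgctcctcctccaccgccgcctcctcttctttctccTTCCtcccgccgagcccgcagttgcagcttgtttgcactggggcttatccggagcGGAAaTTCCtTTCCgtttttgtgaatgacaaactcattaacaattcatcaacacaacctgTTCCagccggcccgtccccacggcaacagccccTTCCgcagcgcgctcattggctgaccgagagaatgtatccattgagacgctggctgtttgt
Spred1: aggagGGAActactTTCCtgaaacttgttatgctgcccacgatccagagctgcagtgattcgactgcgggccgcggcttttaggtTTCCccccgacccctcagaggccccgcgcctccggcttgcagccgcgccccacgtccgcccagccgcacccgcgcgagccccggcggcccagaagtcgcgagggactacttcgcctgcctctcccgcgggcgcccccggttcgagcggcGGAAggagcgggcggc

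The Dusp5 window holds 2 CArG boxes end to end, the first beginning at position -82 from the start site and the second at -72. A CArG box was found in 1.47% of the 32851 promoter windows of the RefSeq table and 2 or more in 0.0183% (6 windows), and in none of the other 6 windows of these genes. The core GGAA was present on either strand in 6 of the 7 windows, with 0 to 6 copies, but also in 93.4% of all windows, with a median of 3 copies. The longer ETS sequence CCGGAAG (8.86% of all 300-base windows), the AP-1 sequence TGANTCA (7.81%) and the CRE sequence TGACGTCA (1.79%), each searched on both strands, were in 0 of the 7 windows. CArG and GGAA were chosen after the sequences had been read. A match describes letters and not a bound site.

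Dusp6 encodes a cytoplasmic phosphatase with strong preference for ERK, and it was among the most abundant of these transcripts and had the smallest ratio of highest to lowest library. The gene (ENSMUSG00000019960) lies on chromosome 10 of GRCm38 from 99263231 to 99267489. Its level was 169.6, 157, 164 and 179.9 CPM in TLQP21 tumours 1 to 4, against 171, 160.2, 159.7 and 163 CPM in Saline tumours 1 to 4. The groups overlapped throughout, and the 8 libraries lay between 157 and 179.9 CPM. The means were 168 ± 9.73 CPM in TLQP21 and 164 ± 5.35 CPM in Saline (SD, n = 4 each), a log2 fold change of 0.03 (SE 0.08) with a 95% interval of 0.907-fold to 1.16-fold.

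Dusp4 encodes a nuclear phosphatase that acts on ERK and also on the stress kinases JNK and p38. On GRCm38 it (ENSMUSG00000031530) lies on chromosome 8 from 34807297 to 34819894. TLQP21 tumours had 115, 128, 136 and 134 CPM, and Saline tumours 149.6, 139.6, 111 and 179.6 CPM. Saline 4 was the highest and Saline 3 the lowest of all 8, so that the Saline range enclosed the TLQP21 range. The log2 fold change was -0.18 (SE 0.14), and it was -0.06 without Saline 4 and -0.28 without Saline 3. The fit without Saline 3 was the only alternative in which any of the 10 genes had an unadjusted p under 0.05 (Dusp4, unadjusted p = 0.0359, adjusted p = 0.970 by edgeR; over the alternatives its adjusted p ran from 0.552 to 0.99999).

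Dusp5, the nuclear phosphatase specific for ERK whose promoter is shown above, depended on the same library. The gene (ENSMUSG00000034765) lies on chromosome 19 from 53529109 to 53542431. TLQP21 tumours had 46.1, 38.8, 44.0 and 43.0 CPM, and Saline tumours 45.8, 39.3, 45.1 and 71.8 CPM. Apart from Saline 4, the 7 libraries lay between 38.8 and 46.1 CPM in both groups. The log2 fold change was -0.23 (SE 0.17, from 0.651-fold to 1.11-fold) over all libraries and -0.02 without Saline 4. Saline 4 also had the summed fibroblast and acinar markers given above, 309 CPM of endothelial markers (212 to 295 in TLQP21, 203 to 212 in the other Saline libraries) and 1303 CPM of neutrophil markers (326 to 661 in TLQP21, 488 to 787 in the other Saline libraries). The part of these cells in the Dusp4 and Dusp5 values was not tested.

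The Sprouty genes encode inhibitors that act between growth factor receptors and RAF. Spry1 (ENSMUSG00000037211, chromosome 3 from 37639947 to 37644598) had 36.8, 41.0, 48.8 and 55.7 CPM in TLQP21 tumours and 44.7, 42.2, 49.7 and 45.5 CPM in Saline tumours. The TLQP21 libraries held both the lowest and the highest of the 8, while the means were nearly equal at 45.6 ± 8.37 CPM in TLQP21 and 45.5 ± 3.13 CPM in Saline (SD, n = 4 each). Its log2 fold change of 0.0020 (SE 0.13) changed sign in 13 of 20 alternatives.

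Spry4 showed the largest difference above 0 of the 10. This gene (ENSMUSG00000024427) lies on chromosome 18 from 38586268 to 38601268. It had 21.8, 19.6, 23.0 and 27.3 CPM in TLQP21 tumours, against 21.6, 19.4, 19.5 and 21.4 CPM in Saline tumours. TLQP21 1, 3 and 4 lay above every Saline library, the first by little, and TLQP21 2 lay among them. The log2 fold change was 0.16 (SE 0.12, unadjusted p = 0.206 by edgeR, from 0.929-fold to 1.35-fold), and it was 0.06 without TLQP21 4.

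Spry2 (ENSMUSG00000022114, chromosome 14 from 105891947 to 105896819) stayed within 26.8 to 30.9 CPM in TLQP21 and 24.3 to 31.0 CPM in Saline, with a log2 fold change of 0.09 (SE 0.11; 0.04 without Saline 3 and 0.16 without Saline 1). Spred1 encodes the SPRED protein that brings the RAS inactivator neurofibromin to the membrane. On GRCm38 it (ENSMUSG00000027351) lies on chromosome 2 from 117121374 to 117182279. It had 139, 125, 144 and 177 CPM in TLQP21 tumours and 158, 139, 142 and 143 CPM in Saline tumours. TLQP21 4 was the highest and TLQP21 2 the lowest of the 8 libraries, and the means were 146 ± 22.0 CPM in TLQP21 and 145 ± 8.79 CPM in Saline (SD, n = 4 each; log2 fold change 0.0088, SE 0.11).

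Etv4 and Etv5 encode ETS transcription factors of the PEA3 group, which carry growth factor and ERK signals to their own target genes. Etv4 (ENSMUSG00000017724, chromosome 11 from 101769742 to 101785371) had 73.7, 79.8, 92.7 and 59.9 CPM in TLQP21 tumours, against 73.3, 73.9, 73.3 and 74.4 CPM in Saline tumours. The Saline libraries were nearly identical, and TLQP21 3 and 4 lay above and below all of them. The means were 76.5 ± 13.6 CPM in TLQP21 and 73.7 ± 0.538 CPM in Saline (SD, n = 4 each), a log2 fold change of 0.05 (SE 0.12).

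Etv5 (ENSMUSG00000013089, chromosome 16 from 22381309 to 22439719) kept to 47.6 to 53.2 CPM in TLQP21 and 46.0 to 51.7 CPM in Saline (log2 fold change 0.07, SE 0.08; 0.04 without Saline 2). Phlda1 encodes a protein with a pleckstrin-homology-like domain and is part of published transcript scores of MAPK activity. The gene (ENSMUSG00000020205, chromosome 10 from 111506286 to 111508645) had 44.6, 37.7, 56.9 and 53.7 CPM in TLQP21 tumours and 44.7, 44.6, 42.5 and 53.7 CPM in Saline tumours. TLQP21 2 was the lowest and TLQP21 3 the highest library, with Saline 4 level with TLQP21 4, and the log2 fold change was 0.06 (SE 0.14). Exons of Phlda1, Dusp5 and Spry1 share 727, 547 and 710 bases with genes annotated on the opposite strand in GENCODE M21, and without a stated strand setting such reads cannot be assigned with certainty. The gene opposite Phlda1 had 0 reads over all libraries and the one opposite Spry1 14. The name of the gene opposite Dusp5 was not found among the deposited counts, so its reads are not known.

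Per kilobase of gene length, the phosphatases Dusp6 and Dusp4 were the most abundant, at means over all 8 libraries of 52.9 and 49.8 RPKM (CPM per kilobase). Their ranges overlapped (50.1 to 57.4 and 40.4 to 65.5 RPKM), and the lowest Dusp4 value lay above the highest Etv4 value, 29.9 RPKM. Etv4 (24.2), Spred1 (21.5), Phlda1 (21.5), Dusp5 (18.9), Spry1 (15.7), Spry2 (13.5) and Etv5 (12.2) followed in RPKM, each overlapping the next in its range. Spry4 was lowest at 4.73 RPKM, and its highest library (5.95) was under the lowest of Etv5 (11.2). Dusp6 was thus 11.2 times Spry4 in mean level.

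**Figure D3:**
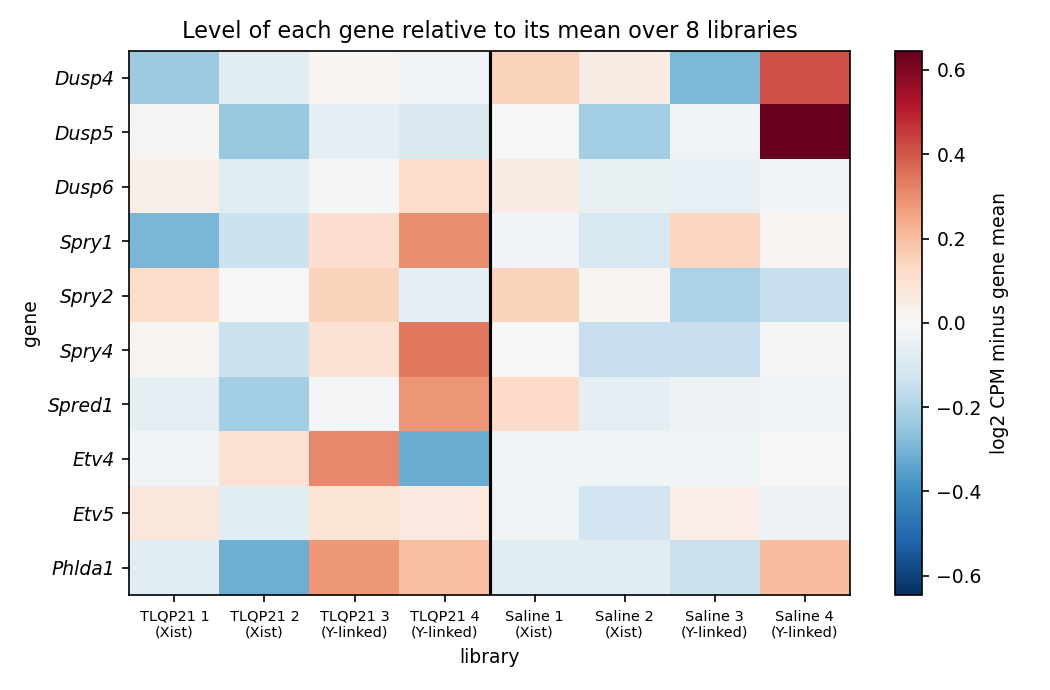
Log2 CPM of each gene minus its mean over the 8 libraries (colour scale), for 10 genes (rows) and 4 TLQP21 and 4 Saline libraries (columns, split by the black line). TLQP21 4 is the highest library for 4 genes and the lowest for Etv4, and TLQP21 2 is the lowest for 4 genes.

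The libraries with extreme values were on both sides of the treatment. TLQP21 4 held the highest value of 4 genes (Dusp6, Spry1, Spry4 and Spred1) and the lowest of Etv4. TLQP21 3 was highest for 3 genes (Etv4, Etv5 and Phlda1), whereas TLQP21 2 was lowest for 4 (Dusp5, Dusp6, Spred1 and Phlda1). Saline 4 was highest for the 2 nuclear phosphatases.

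Of 45 pairs of these genes, 36 had a positive Pearson correlation of log2 CPM over the 8 libraries (median r = 0.13), and none passed after Benjamini-Hochberg adjustment over the 45 (exact permutation of pairings, two-sided). Correlations were computed over both treatment groups together. The highest was Dusp6 with Spred1 (r = 0.90, exact permutation p = 0.00238, adjusted 0.104; Spearman rho = 0.81, exact permutation p = 0.0218, adjusted 0.419). It fell to r = 0.55 without Saline 1 and TLQP21 4, so that it rested in part on those libraries. Dusp6 with Spry4 was next (r = 0.89, exact permutation p = 0.00464, adjusted 0.104; rho = 0.81, exact permutation p = 0.0218, adjusted 0.419; r = 0.76 without the same libraries). Etv4 had r of -0.63 with Dusp6 and -0.64 with Spred1, and both were near 0 (-0.0079 and -0.0089) without TLQP21 4 and the library next farthest from the median of the partner. Each kind of library held only 4 samples, too few for a correlation within it.

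Among 18220 other genes, those whose log2 CPM followed a member most closely over the 8 libraries were Nox4 for Spred1 (r = 0.99), Ptbp2 and Fbxo3 for Spry1 (both 0.99), Jag1 for Spry4 (0.98), Commd4 for Etv4 (0.97) and E330037G11Rik for Dusp6 (0.97). For Spry2 the closest was Nrip2 (0.97), for Dusp5 Piezo1 (0.96), for Dusp4 Sh3pxd2a (0.96), for Etv5 Mdm1 (0.96) and for Phlda1 Gm14121 (0.93). The mean of the 10 standardised genes was followed most closely by Vapa (0.96), Diras2 (0.95), Trim59, Hyls1 (both 0.93) and Ticrr (0.92). These are the highest of many values over 8 shared libraries and are given as a description.

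The kinds of library were compared next, because each treatment group held 2 of each. Setting Y-linked libraries against Xist libraries, 0 of the 10 genes passed edgeR's test with treatment as a covariate (smallest adjusted p = 0.274), against 68 of 18238 genes (0.373%), and 8 of the 10 lay above 0, against 52.2% of all genes. At an unadjusted p under 0.05 were only Spry1 and Phlda1 of the 10, beside 13.6% of all genes in this comparison. The share of all genes without overlap between the kinds was not counted, so the separation of a single gene has no background here. Spry1 had the smallest p of the 10 (unadjusted p = 0.0195 by edgeR), with values that did not overlap. Its mean was 49.9 CPM in libraries with Y-linked transcripts and 41.2 CPM in those with Xist (n = 4 each; log2 difference 0.28, SE 0.10, adjusted p = 0.274). Phlda1 was at 51.7 CPM in libraries with Y-linked transcripts and 42.9 CPM in those with Xist (0.27, SE 0.11, unadjusted p = 0.0423, adjusted p = 0.345 by edgeR).

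Within the libraries with Y-linked transcripts, 8 of the 10 genes had a TLQP21 over Saline ratio above 1, with a median log2 ratio of 0.11. Within those with Xist 3 of 10 did, with a median of -0.02. Over all genes the medians were 0.0053 in Y-linked libraries and -0.0044 in Xist libraries, with 50.8% of genes above 0 in Y-linked and 49.0% in Xist libraries. The gap between the kinds was widest for Dusp5, at -0.43 in Y-linked libraries and -0.0036 in Xist libraries. Spred1 came next, at 0.18 in Y-linked libraries and -0.17 in Xist libraries. The Y-linked ratio of Dusp5 rested on Saline 4, at 71.8 CPM, against 45.1 CPM in Saline 3 and 44.0 and 43.0 CPM in TLQP21 3 and 4. No interaction of treatment and kind passed for any of the 10 in edgeR (smallest unadjusted p = 0.114, for Spred1; adjusted p = 0.842) or for any of 18238 genes (0%, with 4.80% at an unadjusted p under 0.05). Within a kind each ratio rests on 2 libraries against 2.

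**Figure D4:**
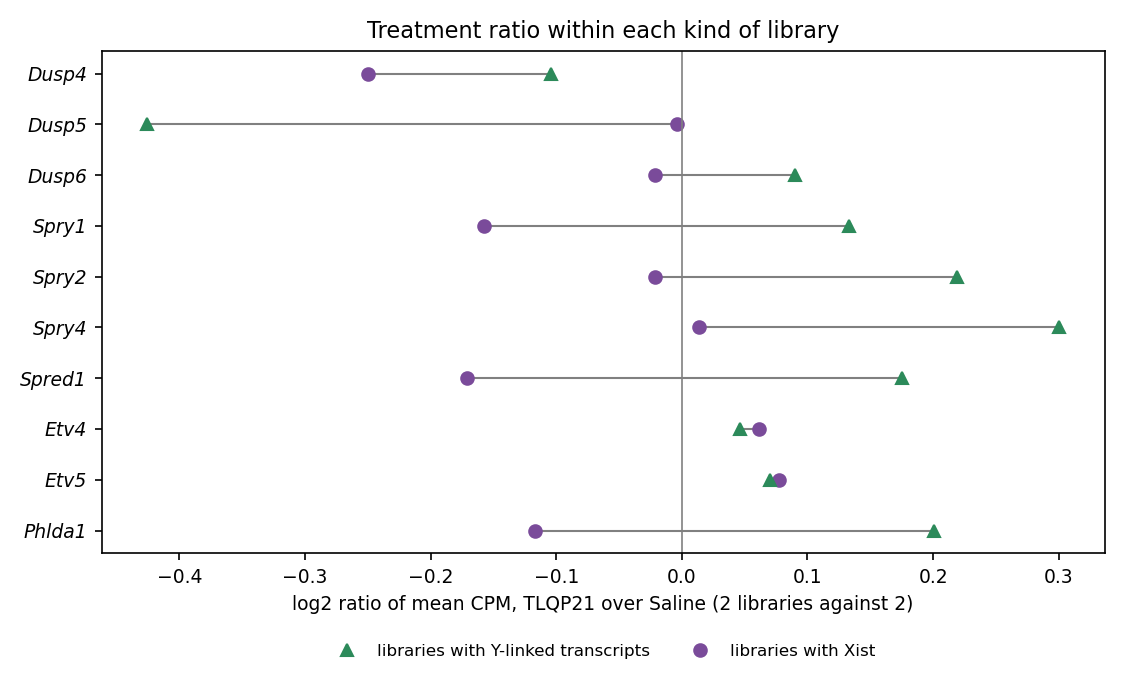
Log2 ratio of mean CPM, TLQP21 over Saline (x axis), within the 4 libraries with Y-linked transcripts (triangles) and within the 4 with Xist (circles) for the 10 genes. Triangles lie above 0 for 8 genes (median 0.11) and circles for 3 (median -0.02).

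Other genes of the pathway were read from 3 lists and a published activity score. The core list held RAS proteins, their activators and inactivators, adaptors, a phosphatase, a scaffold, and the RAF, MEK and ERK kinases. In it 0 of 19 tested genes passed edgeR's test for treatment. Of these, 11 lay above 0 and the median was 0.02. Over all tested genes 0 of 18238 passed and 50.6% lay above 0. The smallest p-values belonged to Ksr1, a scaffold for RAF, MEK and ERK (32.6 ± 2.59 CPM in TLQP21 and 36.2 ± 3.40 CPM in Saline, SD, n = 4 each; log2 fold change -0.15, SE 0.10), Map2k2, which encodes MEK2 (-0.17, SE 0.12), and Grb2, the adaptor that couples receptors to SOS (-0.16, SE 0.12). Mapk3, which encodes ERK1, was the most abundant of the list per length at 78.8 RPKM, with a log2 fold change of -0.04.

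Among 15 other feedback inhibitors 0 passed the test for treatment, 8 lay above 0 and the median was 0.0026. Dusp2, a phosphatase of activated leukocytes, had the smallest p (unadjusted p = 0.029 by edgeR, adjusted p = 0.9999). It had 9.92, 5.73, 8.0 and 4.54 CPM in TLQP21 tumours and 9.84, 6.48, 17.2 and 21.3 CPM in Saline tumours. The groups overlapped, and Saline 3 and 4 were the high libraries. Neutrophil markers summed to 326 to 661 CPM in TLQP21 and 488 to 1303 CPM in Saline tumours, and were highest in Saline 4 but lowest among the Saline libraries in Saline 3. Macrophage markers summed to 1634 to 2849 CPM in TLQP21 and 2213 to 2946 CPM in Saline tumours, and Saline 3 was again the lowest Saline library. Lymphocyte markers summed to 58.0 to 83.1 CPM in TLQP21 and 55.1 to 91.1 CPM in Saline tumours, lowest in Saline 4. Within that list Cd4, named after its values were seen, was at 5.18 to 8.14 CPM in TLQP21 and 7.34 to 14.4 CPM in Saline tumours, highest in Saline 3. The list as a whole was not highest there, with a summed 68.0 CPM in Saline 3 against 91.1 CPM in Saline 2. Of its 8 tested genes, 3 lay above 0 for treatment and 5 below. The part of these cells in the Dusp2 value was not tested. The log2 fold change was -0.96 (SE 0.38), with log2 ratios of -1.62 in Y-linked libraries and -0.06 in Xist libraries. Il17rd, which encodes the receptor-like inhibitor SEF, was at 0.23 (SE 0.14) and Dusp8, a phosphatase of stress kinases, at -0.39 (SE 0.30). Errfi1, an inhibitor of the EGF receptor, was the most abundant at 90.3 RPKM (-0.07, SE 0.19).

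In the list of 15 other ERK output genes 0 passed the test for treatment, 8 lay above 0 and the median was 0.0096. Mcl1, an inhibitor of cell death, was the only gene of the list whose groups did not overlap, as for 1.66% of all genes. It had 468, 425, 477 and 451 CPM in TLQP21 tumours, against 519.6, 482, 507 and 643 CPM in Saline tumours. Every TLQP21 library was below every Saline library, with a log2 fold change of -0.24 (SE 0.11, unadjusted p = 0.0538, adjusted p = 0.9999 by edgeR). Hmga2, a chromatin protein of embryonic and tumour cells, was at 0.25 (SE 0.15), Ier3 at -0.17 (SE 0.11), and Emp1, a membrane protein and the most abundant of the list at 165 RPKM, at 0.11 (SE 0.12). Of the 10 genes of the activity score, 7 are among those described above. In the score 0 passed, 9 lay above 0 (50.6% of all genes) and the median was 0.08. The other 3 were Ccnd1 (0.09), Epha2 (0.11) and Epha4 (0.11). This balance was not stable either, since under voom Dusp6 (-0.036) and Phlda1 (-0.13) lay below 0. Dusp6, Etv4 and Phlda1 changed sign when 1 library was left out, while Spry2, Spry4 and Etv5 stayed above 0 in every alternative.

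**Figure D5:**
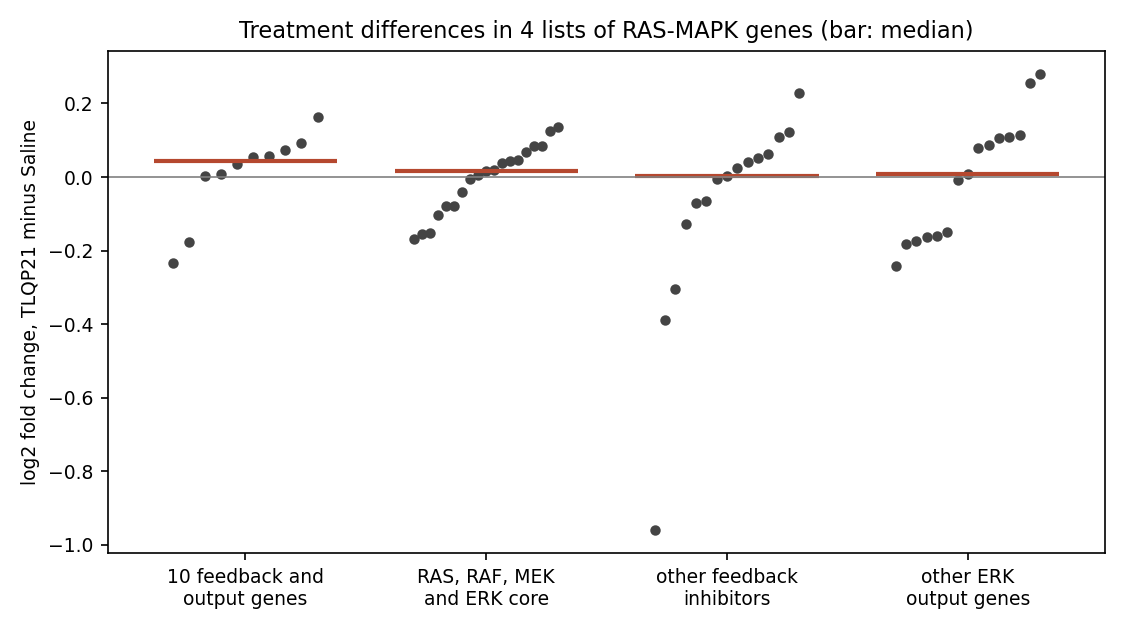
Log2 fold change of TLQP21 minus Saline (y axis) for each tested gene (points) of the 10 feedback and output genes and of 3 further lists, with the list's median (bar). The medians lie between 0.0026 and 0.04, and the lowest point is Dusp2 at -0.96.

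Among the 49 tested genes of the 3 lists, 2 immediate-early genes passed the test between the kinds of library (4.08%, against 0.373% of all genes). Neither passed it for treatment. The lists were chosen with earlier results of these data known, so this share is given only as a description. In Y-linked against Xist libraries, Dusp1, a phosphatase induced within minutes by growth factors and stress, was at means of 147 and 60.3 CPM (log2 difference 1.28, SE 0.13, adjusted p = 0.00565 by edgeR). The transcription factor Egr1 was at 103 CPM in libraries with Y-linked transcripts and 45.5 CPM in those with Xist (1.18, SE 0.14, adjusted p = 0.0129 by edgeR). Both were higher in all 4 libraries with Y-linked transcripts than in any with Xist, and no other gene of the 3 lists passed. Fos, another immediate-early transcription factor, named after its values were seen, was at 128 CPM in libraries with Y-linked transcripts and 49.1 CPM in those with Xist without overlap (1.37, SE 0.24, adjusted p = 0.0617 by edgeR). Errfi1, Gab1 and Dusp14 of these lists, also named after their values were seen, were likewise higher in libraries with Y-linked transcripts without overlap. In Y-linked against Xist libraries Errfi1 was at 378 and 269 CPM (adjusted p = 0.101 by edgeR). Gab1 was at 26.1 and 19.4 CPM (adjusted p = 0.149 by edgeR) and Dusp14 at 4.2 and 3.07 CPM (adjusted p = 0.325 by edgeR). How many of all genes separate between the kinds in this way was not counted. For treatment the log2 fold changes were -0.31 (SE 0.42) for Dusp1 and -0.15 (SE 0.39) for Egr1. The labels give no sex, handling time or batch, so what else differs between these kinds cannot be told apart from them.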

How the data were processed

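Bulk RNA sequencing of 8 tumour libraries was used, 4 from TLQP21-treated and 4 from saline-treated mice, grouped by sample title. The table the authors deposited holds raw read counts for 54532 genes. HISAT2 2.0.5, featureCounts 1.5.0-p3, DESeq2 1.32.0 and build GRCm38 (mm10) are named in the submitters' processing notes; annotation release and strand setting are not given in the sources used here. Library totals were 28358465 to 33536087 counts.

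Genes passing edgeR's default count filter (18238) were scaled by TMM (trimmed mean of M-values) and tested with edgeR 4.0.16 (quasi-likelihood, R 4.3.3), with treatment as the only term. Benjamini-Hochberg adjustment ran over all tested genes, with a threshold of 0.05. SEs were derived from the log2 fold change and its F statistic. RPKM, used to compare levels between genes, is TMM-scaled CPM per kilobase of the gene length that the deposited table gives. Alternatives were DESeq2 1.42.0, limma 3.58.1 voom with quality weights, other scalings and filters, a replicate block, the kind of library as a covariate, acinar genes left out, thinned counts and each library left out; leaving out Saline 4 and TLQP21 4 together was added after seeing the data. In 1 data set simulated from these libraries with 17946 genes tested, 9 of 50 genes changed 1.5-fold and 26 of 50 changed 2-fold were recovered. The same set held 50 genes changed 3-fold (41 recovered) and 50 changed 4-fold (46 recovered), with 3 false calls in all. Such large changes ease the adjusted threshold, so recovery of small changes in data without them may be lower.

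The 10 genes, the lists and the tests were chosen with earlier results of these data known. Named from the other lists are genes past the threshold, the 3 with the smallest unadjusted p and the one with the highest RPKM; Dusp1 and Egr1 passed in the comparison of library kinds, and other exceptions are marked. Whether each library is a separate animal is not stated in the labels; the p-values reflect only how far these samples vary, and some of that may be technical. No pair of libraries was a duplicate (chi-square per degree of freedom of at least 19.0 over genes). Of the 10 genes, 6 had an entry in the RefSeq promoter table (GRCm38.p6), with 7 start sites. Protein sequences were not used here, so the planned protein motifs were not searched.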

Additional observations from a re-analysis of the deposited data

Results flagged for a closer look

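In 76 groups of 4 libraries, covering the 10 genes, the genes named from the other lists and the summed cell type markers, 8 held a library far from the other 3 by Dixon's criterion; chance alone marks about 1 group in 20. Among the 10 feedback and output genes the only such value was Etv5 in TLQP21 2, at 47.6 CPM against 52.3 to 53.2 CPM in the other TLQP21 libraries. In TLQP21 4, Map2k2 was at 66.5 CPM, against 84.6 to 86.7 CPM in the other TLQP21 libraries, and Emp1 was at 1142 CPM, against 967 to 987 CPM. Ccnd1 in Saline 3 was at 265 CPM, against 203 to 212 CPM in the other Saline libraries, and Braf in Saline 4 was at 32.8 CPM, against 40.4 to 41.6 CPM. In Saline 4 the summed fibroblast markers were at 11437 CPM, against 5646 to 6154 CPM in the other Saline libraries, and the summed endothelial markers at 309 CPM, against 203 to 212 CPM. In Saline 2 the summed hepatocyte markers were at 4041 CPM, against 7.96 to 9.27 CPM in the other Saline libraries.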

How the results depend on the processing

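Of 20 alternatives, 8 of which left out a library, each called 0 of the 10 genes. Over all genes edgeR called 0 in every alternative, DESeq2 called 4 and limma's voom 1. The count of the 10 below 0 was 2 in the reported fit, 6 under voom, 4 with the replicate block, 5 without Saline 4 and TLQP21 4 (chosen after seeing the data), 3 under DESeq2's size factors, under DESeq2, with the kind of library as a covariate, without acinar genes and in thinned counts, and 2 to 6 with a library left out. The median of the 10 was -0.062 under voom and -0.0075 to 0.07 with a library left out. Fold changes on the log2 scale changed sign for Spry1 (-0.0020 with DESeq2 size factors, -0.00059 with DESeq2, -0.087 with voom, -0.013 with the replicate block, -0.012 with kind as a covariate, -0.0063 without acinar genes, -0.0045 in thinned counts, -0.12 without Saline 4 and TLQP21 4), Dusp6 (-0.036 with voom, -0.0078 without both libraries), Spred1 (-0.16 with voom, -0.0012 with the replicate block, -0.11 without both libraries) and Phlda1 (-0.13 with voom); the cause was not tested. With 1 library left out, ranges were -0.0041 to 0.066 for Dusp6, -0.11 to 0.092 for Spry1, -0.10 to 0.079 for Spred1, -0.050 to 0.15 for Etv4 and -0.032 to 0.16 for Phlda1; the other 5 kept their sign. Libraries of the same number had correlations of -0.05 to 0.27 between the groups, 3 of 4 above 0.1. For 1 of 4 TLQP21 libraries the best match was the Saline library of its own number. The kind of library follows the replicate number in both groups, so these correlations cannot show whether the numbers mark pairs. The block is therefore given only as another fit, with log2 fold changes of the 10 from -0.20 to 0.16 and 0 called. Another scaling moved the median of all genes to at most 0.03.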

Other observations

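Braf, which encodes a RAF kinase and was chosen after its values were seen, had TLQP21 over Saline log2 ratios of opposite sign in the kinds of library. The ratio was 0.31 among libraries with Y-linked transcripts and -0.25 among those with Xist (interaction of treatment and kind, unadjusted p = 0.0436, adjusted p = 0.842 by edgeR), and it did not pass after adjustment.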
